A study of Homo sapiens with 8 samples.

Results

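Selenoproteins are proteins that carry selenocysteine, an amino acid that holds selenium in place of the sulfur of cysteine. Transcripts of 10 selenoprotein genes were followed at low and high glucose in MDA-MB-157, a long-established human breast cancer cell line that is negative for the estrogen receptor. The 10 genes, SELENOP, SELENOW, SELENOM, SELENOS, SELENOK, GPX1, GPX3, GPX4, TXNRD1 and TXNRD2, were chosen from 25 human selenoprotein genes with their values in this comparison already known. All 10 were in the table of 21059 genes. Because the same comparison chose them, their differences are given as a description and without a p-value.

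For 48 hours the cells had serum-free medium holding either 5 mM glucose (the low glucose group, replicates 1 to 4) or 25 mM glucose (the high glucose group, replicates 1 to 4), which gave 8 libraries. A control for the osmotic effect of added sugar was not among the libraries. All values come from 1 cell line. The question behind the comparison is which transcripts differ under the high glucose that stands for diabetes in culture.

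Selenocysteine has no codon of its own. It is inserted at UGA, which otherwise ends translation, when the 3′ untranslated region of the mRNA holds a stem-loop called the SECIS element. SECISBP2 binds that element, and EEFSEC brings the charged selenocysteine tRNA to the ribosome. Most selenoproteins are enzymes that move electrons: glutathione peroxidases reduce peroxides, and thioredoxin reductases keep thioredoxin reduced. A UGA that is read as a stop upstream of an exon junction can send the mRNA to nonsense-mediated decay, and some selenoprotein mRNAs are lost in this way when selenium is short.

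The position of the selenocysteine codon separates the 10 genes, and the sequence around it is shown for that reason. Each line gives the codon (TGA in the DNA, in capitals) with 4 codons on either side, or fewer where the reading frame ends, read 5′ to 3′ from the canonical transcripts of GENCODE release 44 on GRCh37. For SELENOP the first and the last of its 10 selenocysteine codons are shown.
SELENOP codon 59: cttcaagccagcTGAtacctgtgcata
SELENOP codon 378: aaaaagtgagaaTGAccttcaaactaa
GPX1 codon 49: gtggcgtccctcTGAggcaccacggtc
GPX3 codon 73: gtggccagctacTGAggcctgacgggc
GPX4 codon 73: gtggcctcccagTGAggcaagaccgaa
SELENOW codon 13: tattgtggcgctTGAggctacaagtcc
SELENOM codon 48: acctgcgggggaTGAcagctgaaccgc
TXNRD1 codon 648: caggctggctgcTGAggttaa
TXNRD2 codon 523: gtgacaggctgcTGAgggtaa
SELENOS codon 188: tcatctggcggaTGAggctaa
SELENOK codon 92: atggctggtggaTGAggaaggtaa

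In GPX1, GPX3, GPX4, SELENOW and SELENOM the codon lay in the first part of the reading frame, at codon 13 of 87 in SELENOW and at codon 73 of 226 in GPX3. In TXNRD1, TXNRD2 and SELENOS it was the last codon but one of the reading frame, as at codon 648 of 649 in TXNRD1, and in SELENOK it was codon 92 of 94. SELENOP had its first selenocysteine codon at position 59 of 381 and the other 9 between codons 300 and 378. Of the 10 genes, 7 had the first selenocysteine codon more than 50 bases before the last exon junction, the distance beyond which a stop is usually read as premature. The exceptions were TXNRD1, SELENOS and SELENOK. Among all 25 selenoprotein genes the number was 15.

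**Figure D1:**
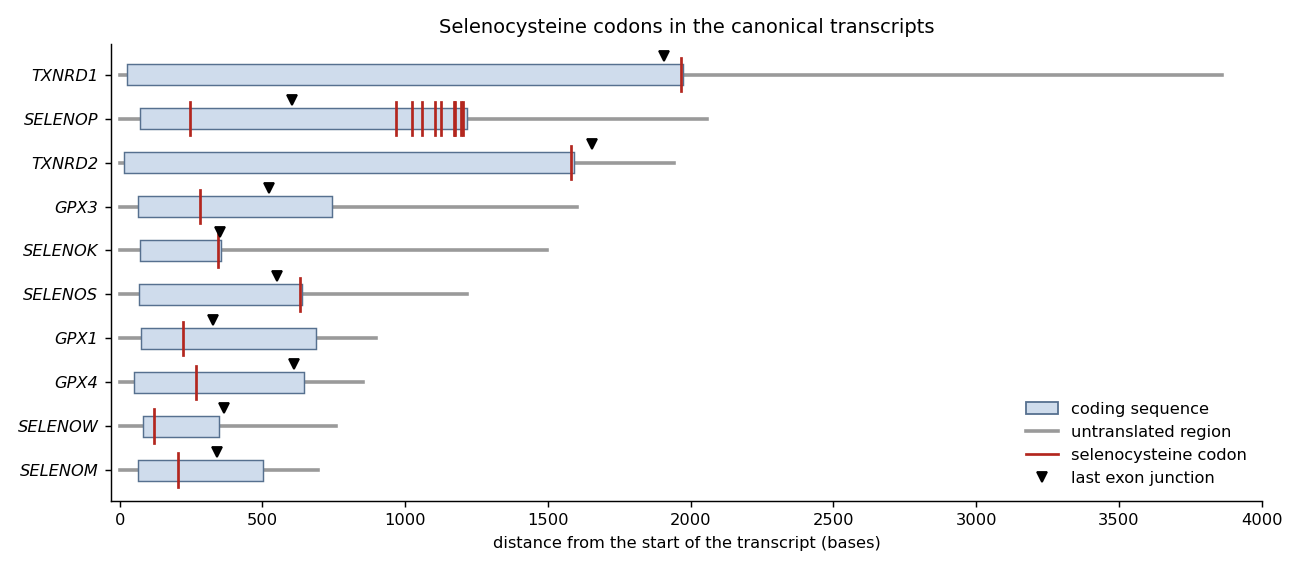
Canonical transcripts of the 10 selenoprotein genes, drawn to scale in bases from the start of the transcript, with the coding sequence as a box, untranslated regions as lines, selenocysteine codons as red ticks and the last exon junction as a triangle. The transcripts ran from 694 bases (SELENOM) to 3860 bases (TXNRD1), and SELENOP is the one with 10 ticks.

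Each value is a CPM, the count of a gene per 1000000 reads after scaling by the authors. The libraries held an estimated 9721085 to 12481830 reads, and 3 reads, taken as the floor, came to 0.212 to 0.267 CPM. These depths cover counting error only. High glucose replicate 1 stood apart. Its difference from the other 3 high glucose libraries ran with transcript length (Spearman rho -0.65 across 11223 genes, which are not independent replicates). Each of the other 3, set against the rest of its group, gave 0.25 to 0.47. That rest includes replicate 1, so these values cannot show whether those 3 libraries have a trend of their own. The low glucose libraries gave -0.13 to 0.06. Values without high glucose replicate 1 and values after removal of a trend on length are therefore given for most of the 10 genes. Of the markers of the line, KRT8 and KRT18 (epithelial keratins) were at 131 and 233.5 CPM at low and 88.3 and 170 CPM at high glucose, VIM, FN1 and SPARC (mesenchymal) were at 4091, 3612 and 21705 CPM at low and 2967, 2537 and 12226 CPM at high glucose, and ESR1, the estrogen receptor, was at or below 0.17 CPM in every library. KRT19 did not exceed 0.0825 CPM in any library. The progesterone receptor PGR averaged 4.76 CPM in the low and 5.34 CPM in the high glucose group, and ERBB2 averaged 63.6 and 39.2 CPM. The 3 keratins summed to 353.9 to 370.5 CPM at low and 232.7 to 296.7 CPM at high glucose, and the 3 mesenchymal markers summed to 29070 to 29770 and to 17530 to 18120 CPM. The part of these differences in the values of the selenoproteins was not tested. The hepatocyte marker ALB, of interest because the liver makes most SELENOP of the blood, did not exceed 0.364 CPM, and the leukocyte marker PTPRC did not exceed 0.178 CPM. Of the endothelial markers, PECAM1 reached 2.84 CPM, VWF 1.53 CPM and CDH5 0.364 CPM.

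Over the whole table, 46.8% of the genes passed an adjusted p of 0.05 between high and low glucose (limma), 22.0% higher and 24.8% lower. Among genes with a mean of at least 5 CPM, which all 10 selenoproteins reached, 66.9% passed. The 4 libraries of the groups did not overlap in 65.0% of the genes of that level. Of the 10 selenoproteins, 3 were past that threshold, 1 lower and 2 higher, a description only because the same comparison chose them. In 4 the groups did not overlap, SELENOP (lower) and SELENOS, SELENOK and GPX3 (higher). The median log2 difference was 0.03 for the 10 genes and -0.01 over all genes of at least 5 CPM. Summed over the 10 genes, the low glucose libraries held 695 ± 11.4 CPM (SD, n = 4) and the high glucose libraries 683 ± 40.6 CPM.

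SELENOP (ENSG00000250722.6, chromosome 5, 42799982 to 42887494 on GRCh37, minus strand) encodes the secreted selenoprotein that carries selenium to other tissues. It was at 11.4, 12.1, 13.0 and 12.1 CPM in low glucose replicates 1 to 4 and at 2.52, 3.12, 1.90 and 1.42 CPM in high glucose replicates 1 to 4. Every high glucose library lay below every low glucose library, with a gap wider than the spread of either group. The group means were 12.2 ± 0.663 CPM (SD, n = 4) and 2.24 ± 0.740 CPM, so the mean at high glucose was 18.4% of that at low glucose, a 5.43-fold difference. On the scale of log2(CPM + 1) the difference, high minus low, was -2.05 (SE 0.16), where the added 1 CPM understates the change of a low gene, and with 0.1 CPM added it was -2.44. Behind these values stood an estimated 137 to 166 reads at low and 16 to 39 reads at high glucose. In bulk RNA, fewer cells with a transcript and fewer copies in each cell cannot be told apart.

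The fall of SELENOP did not rest on the library that stood apart. Without high glucose replicate 1 the log2 difference was -2.10, and with the length trend removed it was -2.01. Leaving out any other library gave -2.17 to -1.92. Exons of CCDC152, a gene on the opposite strand, cover 70.6% of the SELENOP transcript. The mean of CCDC152 was 0.0631 CPM in the low and 0.0792 CPM in the high glucose group, both under the floor. A noncoding RNA on the opposite strand (ENSG00000272234) covers 4.96% and was at 0.0662 and 0.0163 CPM. The paper names a stranded library kit for the tumors and no kit for the cell lines. No source says whether reads were counted by strand, so reads of the strands cannot be told apart here.

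The promoter of SELENOP is shown because the gene moved most of the 10. In liver cells it is known to be driven by FOXO1 and HNF4A with the coactivator PPARGC1A. The sequence covers 250 bases before to 50 after the start site in RefSeq (GRCh38.p14, chr5:42811843-42812142, minus strand, written 5′ to 3′ along the gene). Capitals mark matches to GTAAACA (FOXO), CAAAGTNCA (HNF4A) and TGACNNNGC (the antioxidant element that NRF2 binds), searched on both strands.
SELENOP promoter: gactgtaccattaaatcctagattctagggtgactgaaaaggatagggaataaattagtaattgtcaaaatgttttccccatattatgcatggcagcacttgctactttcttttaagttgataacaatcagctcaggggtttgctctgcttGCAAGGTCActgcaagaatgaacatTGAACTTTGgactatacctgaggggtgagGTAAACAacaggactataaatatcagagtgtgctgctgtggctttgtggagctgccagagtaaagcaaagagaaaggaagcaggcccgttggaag

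The FOXO letters began at -45 from the start site, the HNF4A letters at -74 on the minus strand of the gene and the NRF2 letters at -99, also on the minus strand, and the 3 matches did not overlap. Of 35116 RefSeq promoters of that length, 3.42% held the FOXO letters, 1.10% the HNF4A letters and 13.3% the NRF2 letters. Promoters were found for 9 of the 10 genes, 14 in all. The FOXO and HNF4A letters were in 1 of these each, that of SELENOP, and the NRF2 letters were in 4, those of SELENOP and SELENOK and both of TXNRD1. A match describes the letters and is no evidence that a factor was bound.

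SELENOS and SELENOK are small membrane proteins of the endoplasmic reticulum (ER) that take part in the removal of misfolded proteins through DERL1 and VCP. SELENOS (ENSG00000131871.15, chromosome 15, 101811022 to 101817705) was at 53.2, 52.8, 56.7 and 55.0 CPM at low glucose and at 85.6, 72.9, 76.8 and 75.5 CPM at high glucose. The groups did not overlap, and the means were 54.4 ± 1.80 and 77.7 ± 5.54 CPM (SD, n = 4). This was a log2 difference of 0.50 (SE 0.05), which was 0.46 without high glucose replicate 1 and 0.60 with the length trend removed.

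SELENOK (ENSG00000113811.11, chromosome 3, 53918444 to 53925912) was at 14.8, 13.5, 14.3 and 12.5 CPM at low glucose and at 26.5, 18.2, 21.3 and 17.1 CPM at high glucose. High glucose replicate 1 was the highest of its group, and the other 3 still lay above all low glucose libraries. On the log2 scale SELENOK differed by 0.54 (SE 0.14), by 0.43 without that library and by 0.62 with the length trend removed. SELENOS and SELENOK are also 2 of the 3 genes here whose selenocysteine codon was not more than 50 bases before the last exon junction. The third, TXNRD1, differed by -0.09.

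Of the 3 glutathione peroxidases, GPX4 and GPX1 overlapped between the groups and GPX3 did not. Over all genes of at least 5 CPM, 65.0% had no overlap. GPX4 (ENSG00000167468.16, chromosome 19, 1103981 to 1106790), which reduces lipid peroxides in membranes and protects from ferroptosis, was at 202, 209, 199 and 206 CPM at low glucose and at 226, 174, 189 and 162 CPM at high glucose. The low glucose libraries lay close together, and the high glucose libraries spread to both sides of them, with replicate 1 on top. GPX4 differed by -0.13 on the log2 scale (SE 0.10), -0.22 without that library and -0.01 with the length trend removed.

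GPX1 (ENSG00000233276.5, chromosome 3, 49394607 to 49396038), the peroxidase of the cytosol, was at 13.7, 17.6, 13.8 and 17.7 CPM at low glucose and at 27.2, 19.7, 18.6 and 13.6 CPM at high glucose. High glucose libraries were both the highest and the lowest of the 8, and the groups overlapped. The log2 difference was 0.29 (SE 0.20), 0.12 without high glucose replicate 1 and 0.40 with the length trend removed. A protein-coding gene annotated on the same strand (ENSG00000290318) shares 63.6% of the GPX1 transcript and had no line of its own among the values used here, so GPX1 reads are of uncertain origin.

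GPX3 (ENSG00000211445.12, chromosome 5, 150400152 to 150408549), the secreted peroxidase of plasma, was at 13.2, 10.2, 9.85 and 13.6 CPM at low glucose and at 16.8, 13.7, 14.1 and 14.7 CPM at high glucose. The highest low glucose library and the lowest high glucose library almost met. GPX3 had a log2 difference of 0.33 (SE 0.12), 0.27 without high glucose replicate 1 and 0.39 with the length trend removed.

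Of the thioredoxin reductases, TXNRD1 (ENSG00000198431.16, chromosome 12, 104609557 to 104744085), the cytosolic enzyme, had the highest CPM of the 10. It was at 330, 332, 345 and 344 CPM at low glucose and at 300, 312, 331 and 326 CPM at high glucose. These ranges met only at their edges, and replicate 1 was the lowest of the high glucose libraries. The log2 difference was -0.09 (SE 0.04), -0.07 without replicate 1 and -0.12 with the length trend removed.

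TXNRD2 (ENSG00000184470.21, chromosome 22, 19863040 to 19929343), the mitochondrial enzyme, was at 13.3, 12.5, 14.9 and 15.1 CPM at low glucose and at 18.8, 14.99, 14.7 and 13.6 CPM at high glucose. Apart from high glucose replicate 1 the groups covered nearly the same range. The log2 difference was 0.14 (SE 0.11) and 0.05 without that library.

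SELENOW (ENSG00000178980.15, chromosome 19, 48281934 to 48287943), a small thioredoxin-like protein known from muscle, was at 10.5, 10.7, 9.94 and 11.3 CPM at low glucose and at 11.2, 10.04, 9.40 and 9.51 CPM at high glucose. The groups overlapped over most of their range. The log2 difference was -0.07 (SE 0.07), it was -0.12 without high glucose replicate 1, and it turned to 0.05 with the length trend removed.

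SELENOM (ENSG00000198832.10, chromosome 22, 31500758 to 31516055), a thioredoxin-like protein of the ER, was at 20.004, 21.7, 20.05 and 21.3 CPM at low glucose and at 21.4, 16.7, 14.5 and 13.5 CPM at high glucose. High glucose replicate 1 lay among the low glucose libraries, and the other 3 lay below all of them. The log2 difference was -0.33 (SE 0.13), -0.46 without replicate 1 and -0.21 with the length trend removed.

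**Figure D2:**
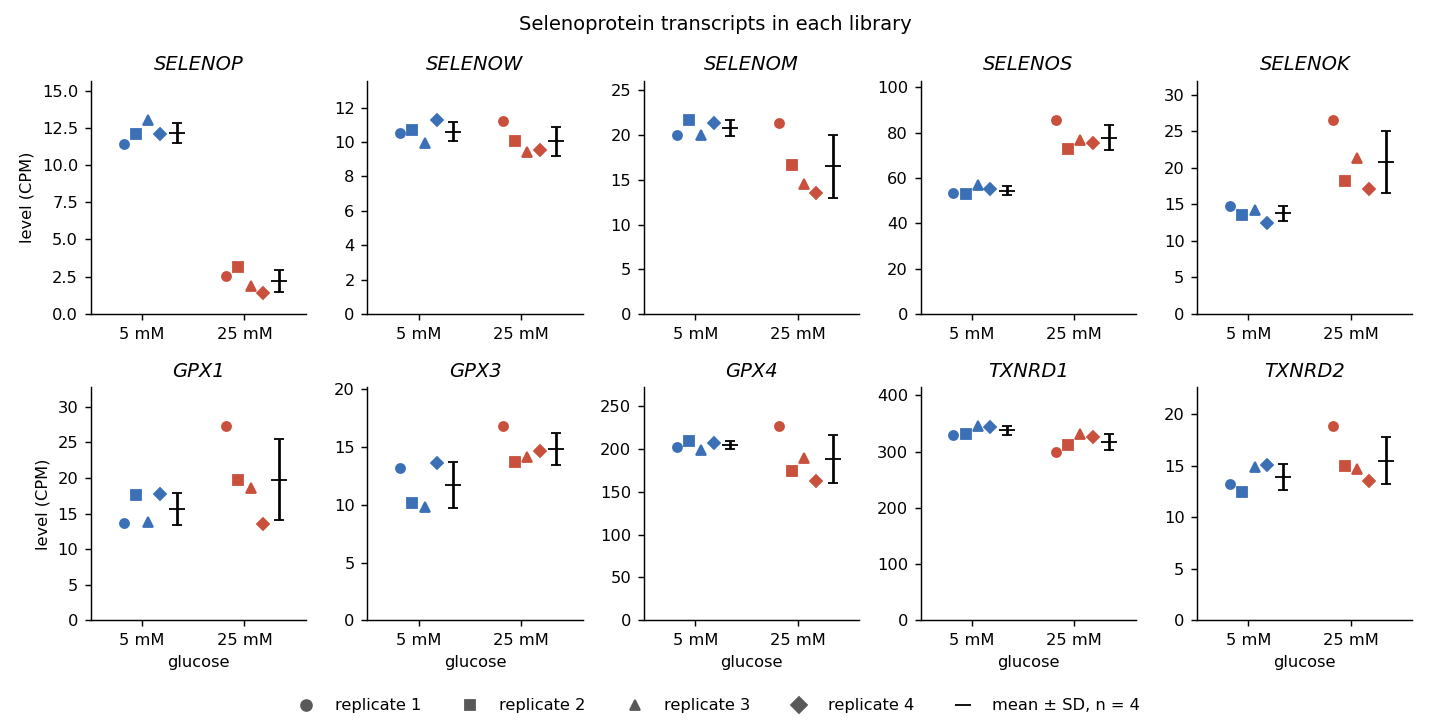
Level of each of the 10 selenoproteins in CPM (y axis, from 0) in the 4 libraries at 5 mM and the 4 at 25 mM glucose (points, 1 marker shape per replicate number), with the group mean and SD in black. SELENOP lies lower at 25 mM, and SELENOS, SELENOK and GPX3 lie higher, without overlap of the groups. Replicate 1 at 25 mM is the highest of its group in 8 of the 10 genes.

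The library that stood apart therefore touched most of the 10 genes. All 8 genes with a transcript under 2000 bases had their highest high glucose value in replicate 1, and SELENOP (2056 bases, highest in replicate 2) and TXNRD1 (3860 bases, highest in replicate 3) did not. Set against the mean of the other 3 high glucose libraries, replicate 1 was higher by 0.64 on the log2 scale for GPX1, by 0.50 for SELENOM, by 0.48 for SELENOK and by 0.37 for GPX4, and it differed by -0.11 for TXNRD1. Genes of at least 5 CPM around 800 bases had a median of 0.29, and those around 5000 bases had a median of -0.06. The part of length in the differences between the glucose groups was not tested beyond the values without that library and without the trend.

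**Figure D3:**
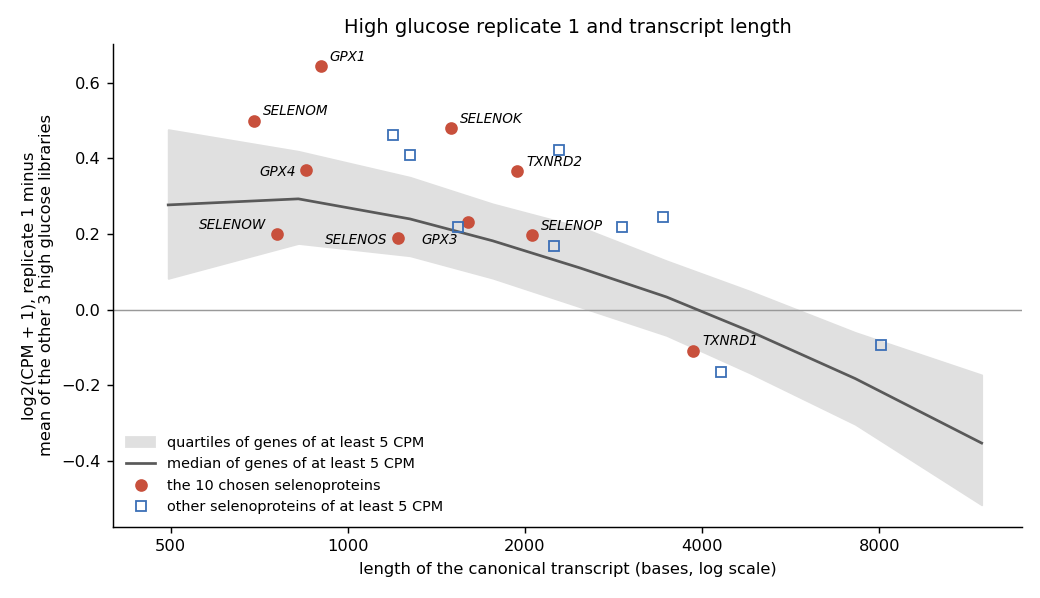
High glucose replicate 1 minus the mean of the other 3 high glucose libraries in log2(CPM + 1) (y axis) against the length of the canonical transcript (x axis, log scale), for the 10 selenoproteins (named points), the other selenoproteins of at least 5 CPM (squares) and all genes of that level (line, median, and band, quartiles). The line falls from 0.29 around 800 bases to -0.35 around 12000 bases, and of the 10 selenoproteins TXNRD1 lies below 0.

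Levels of different genes can be set side by side only per length. At low glucose the order in CPM per kilobase of transcript was GPX4 at 239.7 ± 5.54 (SD, n = 4), TXNRD1 at 87.5 ± 2.06, SELENOS at 44.7 ± 1.48, SELENOM at 29.9 ± 1.26, GPX1 at 17.5 ± 2.49 and SELENOW at 13.99 ± 0.735. SELENOK at 9.18 ± 0.670, GPX3 at 7.30 ± 1.22, TXNRD2 at 7.17 ± 0.643 and SELENOP at 5.91 ± 0.322 followed. The range of GPX3 overlapped those of SELENOK, TXNRD2 and SELENOP, so GPX3 could not be ordered against them, while SELENOP lay below TXNRD2 in every library. At high glucose SELENOK (13.9 ± 2.83) and SELENOW (13.3 ± 1.10) overlapped and could not be ordered. The range of GPX1 overlapped those of SELENOM and SELENOK, and that of GPX3 overlapped that of TXNRD2, so these could not be ordered either. SELENOP at 1.09 ± 0.360 lay below the other 9 in every library.

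The other selenoproteins were measured in the same libraries. Of 15 further genes, 13 were among the 21059, and 8 passed an adjusted p of 0.05 over all genes (limma), 5 higher and 3 lower at high glucose. The median log2 difference of the 13 was 0.05, the value of DIO1, which was under the floor in every library. Among the 9 of at least 5 CPM the median was -0.06, and 7 passed, against 66.9% of all genes of that level. The 3 that fell were TXNRD3, SELENON and MSRB1. TXNRD3, the thioredoxin-glutathione reductase, went from 13.5 ± 0.518 to 6.72 ± 0.739 CPM (SD, n = 4; log2 difference -0.92, adjusted p = 7.0e-05). SELENON, an ER protein whose loss causes a muscle disease, went from 133 ± 1.499 to 75.3 ± 5.08 CPM (-0.82, adjusted p = 1.3e-05). MSRB1, which repairs oxidised methionine, went from 17.9 ± 1.86 to 11.3 ± 1.96 CPM (-0.62, adjusted p = 0.00513). In these 3 genes every high glucose library lay below every low glucose library.

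The 5 that rose did so by less. SELENOT, an ER oxidoreductase, rose from 53.2 ± 1.34 to 72.6 ± 6.99 CPM (log2 difference 0.44, adjusted p = 0.00127). SELENOI, which makes phosphatidylethanolamine, rose from 78.0 ± 3.17 to 105.8 ± 5.34 CPM (0.43, adjusted p = 1.9e-04). SELENOF, an ER partner of glycoprotein folding, rose from 118 ± 4.17 to 153 ± 14.2 CPM (0.37, adjusted p = 0.00317). SEPHS2, which makes the selenium donor for selenocysteine, rose from 105.8 ± 2.86 to 135 ± 8.97 CPM (0.35, adjusted p = 8.5e-04). DIO2, which activates thyroid hormone, was low, at 2.38 ± 0.441 and 3.45 ± 0.401 CPM (0.40, adjusted p = 0.0259), its groups overlapped, and its call was lost without low glucose replicate 1 or 3 or high glucose replicate 2, 3 or 4, with log2 differences of 0.32 to 0.40. SELENOH (-0.16, adjusted p = 0.459), SELENOO (-0.06, adjusted p = 0.805) and DIO3 (0.09, adjusted p = 0.691) did not pass. GPX2 and DIO1 stayed at or below 0.17 CPM in every library.

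**Figure D4:**
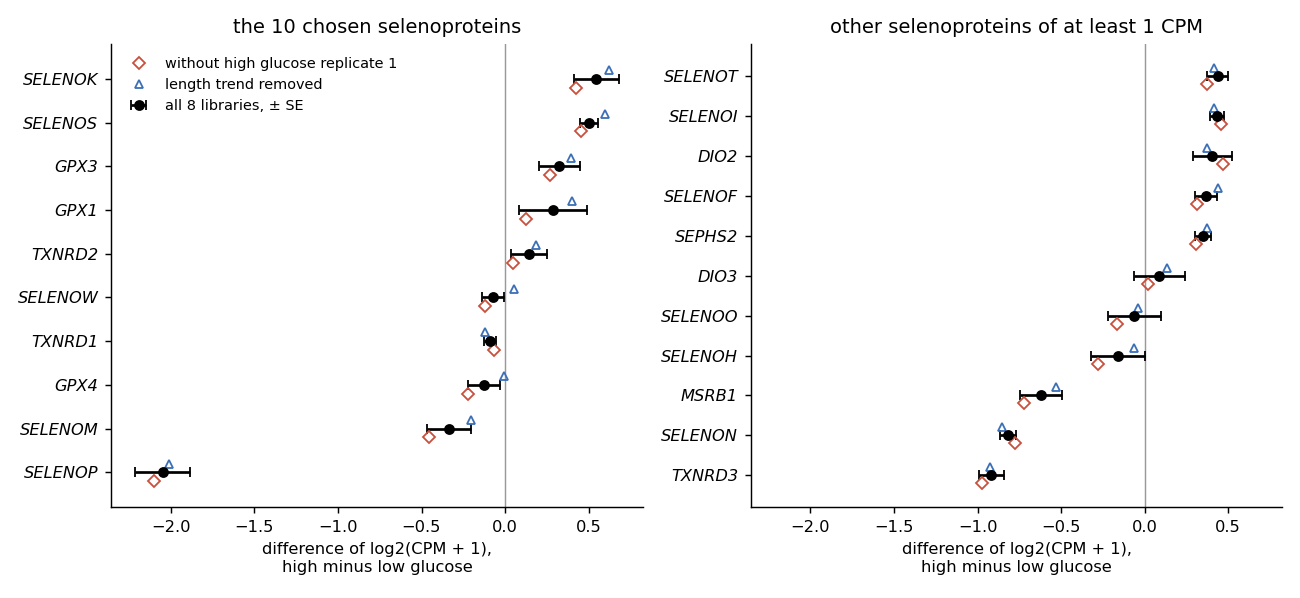
Difference of log2(CPM + 1), high minus low glucose (x axis), for the 10 chosen selenoproteins (left) and for the other selenoproteins of at least 1 CPM (right), with the SE as a bar, and the same difference without high glucose replicate 1 (diamonds) and with the length trend removed (triangles). SELENOP at -2.05 lies farthest from 0, followed by TXNRD3 at -0.92 and SELENON at -0.82.

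By log2 difference, both directions occurred on either side of the split by the position of the selenocysteine codon. Of the 7 chosen genes with the codon more than 50 bases before the last junction, the log2 differences ran from -2.05 (SELENOP) to 0.33 (GPX3). In the 3 without they ran from -0.09 (TXNRD1, whose groups overlapped) to 0.54. Of the 3 chosen genes past the threshold, 1 lower gene had such a codon and 2 higher genes did not. Among the other selenoproteins of at least 1 CPM, those with such a codon numbered 4, with 2 past the threshold higher and 1 lower. Those without numbered 7, with 3 higher and 2 lower. Over all genes tested 46.8% passed, and of those of at least 5 CPM 66.9% passed. No test was made of this split.

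Factors of nonsense-mediated decay were measured as a list of 10, of which 6 rose, none fell and 4 did not pass. All 10 were of at least 5 CPM, and of all genes of that level 66.9% passed. The median log2 difference was 0.32 against -0.01 over all genes tested. Without low glucose replicate 1, 2 or 4 the number of these factors that passed was 4. UPF1, the helicase at the centre of the pathway, rose from 102 ± 5.49 to 155 ± 4.16 CPM (log2 difference 0.60, adjusted p = 3.1e-05). SMG5 rose from 110 ± 2.70 to 148 ± 1.56 CPM (0.42, adjusted p = 7.6e-06) and UPF3B from 26.6 ± 1.91 to 38.1 ± 2.74 CPM (0.50, adjusted p = 7.8e-04).

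The machinery that inserts selenocysteine was split. Of 13 genes 5 rose, 4 fell and 4 did not pass, with a median log2 difference of -0.00098. Among the 11 of at least 5 CPM, 9 passed, against 66.9% of all genes of that level. SEPSECS, the synthase that completes selenocysteine on its tRNA, fell from 12.9 ± 1.09 to 6.16 ± 0.470 CPM (-0.95, adjusted p = 6.2e-05). SARS1, the seryl-tRNA synthetase that charges the same tRNA with serine, fell from 272 ± 5.98 to 181 ± 7.55 CPM (-0.59, adjusted p = 1.3e-05). NCL, an RNA-binding protein that can bind SECIS elements, rose from 821 ± 14.7 to 1157 ± 56.4 CPM (0.49, adjusted p = 8.1e-05). SECISBP2 did not pass, with a log2 difference of -0.03 (adjusted p = 0.643), and EEFSEC fell by 0.47 on the log2 scale (adjusted p = 0.0117). SECISBP2 and EEFSEC are given after their values were seen, as the factors that act at the UGA.

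Of 5 genes for selenium uptake and handling, 2 passed and both were lower. Among the 3 of at least 5 CPM, 1 passed, against 66.9% of all genes of that level. LRP1, a large endocytic receptor, fell from 202 ± 6.92 to 67.2 ± 8.57 CPM (log2 difference -1.58, adjusted p = 1.3e-05). LRP8, the receptor that takes up SELENOP in brain and testis, was at 37.8 ± 1.996 and 41.4 ± 4.49 CPM (0.12, adjusted p = 0.273). SCLY, which frees selenium from selenocysteine, was at 18.4 ± 2.33 and 20.7 ± 0.593 CPM (0.17, adjusted p = 0.153). The other gene that passed was SELENBP1, with means of 0.326 CPM in the low and 0.0612 CPM in the high glucose group, close to or under the floor, and the count of 2 came to 1 in several settings.

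Relatives of the selenoproteins that hold no selenocysteine (the cysteine relatives) were measured too. Of 6 such genes, all of at least 5 CPM, 3 fell, none rose and 3 did not pass, against 66.9% called among all genes of that level, with a median log2 difference of -0.37. GPX7 and GPX8, the peroxidases of the ER, fell from 13.0 ± 1.95 to 5.63 ± 0.226 CPM (-1.07, adjusted p = 1.4e-04) and from 74.4 ± 2.73 to 37.8 ± 1.24 CPM (-0.96, adjusted p = 2.3e-06). MSRB2, the mitochondrial methionine sulfoxide reductase, fell from 11.6 ± 0.699 to 6.80 ± 1.22 CPM (-0.71, adjusted p = 0.00197).

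Around the thioredoxin reductases, 9 of 13 thioredoxin and peroxiredoxin genes passed, 6 higher and 3 lower, with a median log2 difference of 0.03. All 13 were of at least 5 CPM, a level at which 66.9% of all genes passed. TXN2, the mitochondrial thioredoxin and substrate of TXNRD2, fell from 94.0 ± 2.08 to 68.9 ± 4.52 CPM (-0.44, adjusted p = 2.4e-04). PRDX6 rose from 130 ± 4.01 to 168 ± 16.5 CPM (0.36, adjusted p = 0.00370), and GLRX2, a mitochondrial glutaredoxin, rose from 27.9 ± 2.55 to 35.3 ± 1.69 CPM (0.33, adjusted p = 0.00667). Without low glucose replicate 2, 3 or 4 the number that passed was 5.

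Around GPX4, 11 of 19 genes of glutathione supply and ferroptosis passed, 7 higher and 4 lower, with a median log2 difference of 0.10. Among those of at least 5 CPM it was 10 of 16, against 66.9% of all genes of that level. SLC3A2, the heavy chain of the cystine transporter and of other amino acid transporters, rose from 259 ± 1.43 to 799 ± 122 CPM (1.61, adjusted p = 1.9e-05). GCH1, whose product leads to the lipid antioxidant tetrahydrobiopterin, rose from 2.18 ± 0.531 to 13.8 ± 1.28 CPM (2.22, adjusted p = 1.6e-05), and TFRC, the transferrin receptor, rose from 230 ± 2.78 to 391 ± 15.02 CPM (0.76, adjusted p = 3.3e-06). The 4 that fell were GSS (-0.85), which makes glutathione, SLC7A11 (-1.002), the light chain of the cystine transporter, CHAC1 (-1.13), which degrades glutathione, and AIFM2 (-0.30), a further suppressor of ferroptosis, and they are named because they are few. The chains of the cystine transporter thus moved in opposite directions.

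Of 17 ER partners of SELENOS and SELENOK, 14 passed, 10 higher and 4 lower, with a median log2 difference of 0.25. All 14 were among the 16 partners of at least 5 CPM, against 66.9% called among all genes of that level. DERL1, the membrane protein that binds SELENOS, rose from 181 ± 4.52 to 300.5 ± 7.36 CPM (0.73, adjusted p = 2.2e-06). UBE2G2, a ubiquitin-conjugating enzyme of ER-associated degradation, rose from 99.9 ± 2.32 to 131 ± 6.08 CPM (0.39, adjusted p = 1.2e-04), and FAF2, which recruits VCP, rose from 212 ± 1.80 to 283 ± 13.9 CPM (0.41, adjusted p = 8.6e-05). The 4 that fell were VCP (-0.18), SEL1L (-0.16), UBE2J1 (-0.09) and ZDHHC6 (-0.28), the acyltransferase that works with SELENOK.

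A list of regulators that drive SELENOP in liver and of FOXO targets held genes that rose. Of 13 such genes in the table, 8 rose, none fell and 5 did not pass, with a median log2 difference of 0.41. Among the 9 of at least 5 CPM, 7 passed, against 66.9% of all genes of that level. PPARGC1A rose from 18.2 ± 1.25 to 64.1 ± 8.43 CPM (1.75, adjusted p = 1.4e-05). FOXO1, named above with the promoter, rose from 8.32 ± 1.005 to 14.4 ± 2.06 CPM (0.72, adjusted p = 0.00195), and is given after its values were seen. IRS2 and CCNG2, targets of FOXO factors, rose from 23.4 ± 2.24 to 60.9 ± 4.06 CPM (1.34, adjusted p = 1.3e-05) and from 78.1 ± 1.80 to 124 ± 3.48 CPM (0.66, adjusted p = 3.5e-06). HNF4A was at 0 in every low glucose library and averaged 0.0206 CPM at high glucose, under the floor.

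A list of NRF2 (NFE2L2), its inhibitor KEAP1 and NRF2 targets, among which TXNRD1 is usually counted, was mixed. Of 12 genes 3 rose, NFE2L2 itself (0.17) among them, 6 fell and 3 did not pass, KEAP1 among them, with a median log2 difference of -0.24. Among the 11 of at least 5 CPM, 8 passed, against 66.9% of all genes of that level. HMOX1, which degrades heme, rose from 21.95 ± 0.886 to 51.3 ± 7.32 CPM (1.18, adjusted p = 5.9e-05). NQO1, a quinone reductase, fell from 261 ± 5.71 to 189 ± 11.2 CPM (-0.47, adjusted p = 1.2e-04).

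**Figure D5:**
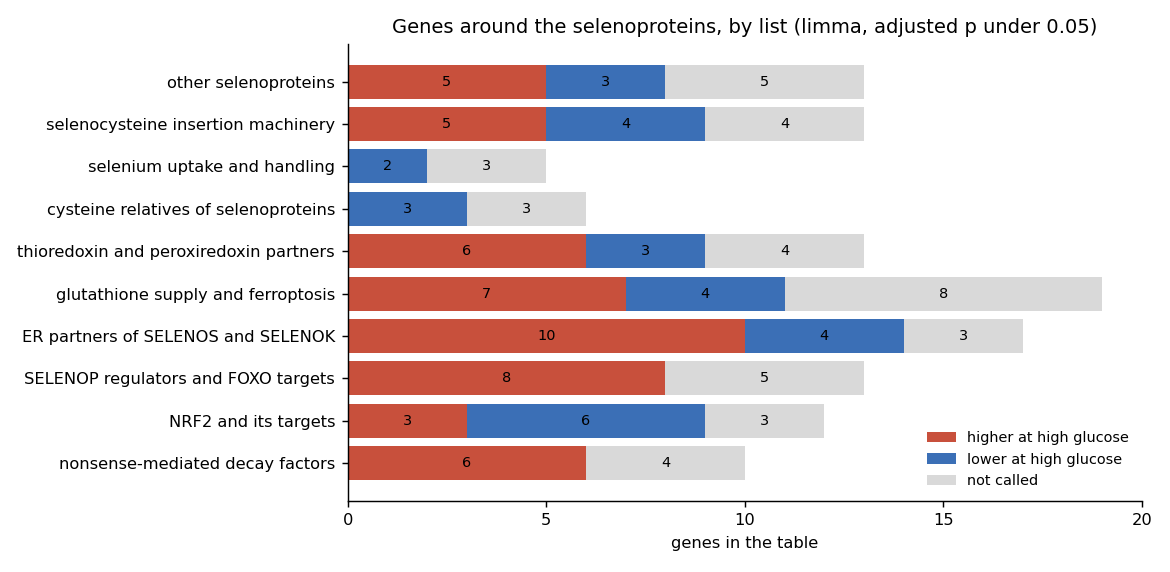
Number of genes of each list (x axis, genes in the table) that were higher (red), lower (blue) or not past an adjusted p of 0.05 (grey) at high glucose, by limma over all genes. The regulators of SELENOP with FOXO targets (8 higher) and the nonsense-mediated decay factors (6 higher) hold no lower gene, and the cysteine relatives (3 lower) and the genes of selenium uptake (2 lower) hold no higher gene.

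Among genes of at least 5 CPM, those with a pattern over the 8 libraries most like that of SELENOP included MTERF2 (Pearson r 0.998) and RPAP1 (0.997). All 8 points share the split by glucose. MTERF2 went from 16.1 ± 0.254 to 10.7 ± 0.809 CPM and RPAP1 from 26.2 ± 0.896 to 17.5 ± 1.42 CPM, log2 differences of -0.55 and -0.55 against -2.05 for SELENOP.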

How the data were processed

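RNA of MDA-MB-157 cells was sequenced on an Illumina HiSeq, 4 libraries at low and 4 at high glucose, grouped by the labels. Whether replicates came from separate experiments is not stated, so p-values measure the spread between these samples. The authors deposited 1 table of CPM (counts per 1000000 reads) with edgeR scaling factors (trimmed mean of M values). Their processing notes name hg38, while the methods describe alignment to hg19, first for tumors. The build, counting tool and use of the strand are not established for this table, and positions describe the annotation.

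Of 21077 lines, 18 pseudoautosomal Y copies identical to the X copies were left out, and 21059 genes were tested, 856 of them at 0 throughout. No column was left unassigned. Library totals were estimated from the step that 1 read makes in the low values. Between 75.4% and 76.4% of values under 200 reads were whole steps, within 0.05 step, so read counts were not recovered and no count test was run.

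Genes were compared on log2(CPM + 1) with limma 3.58.1 in R 4.3.3 (mean-variance trend, no covariate, 2-sided). Adjustment was by Benjamini-Hochberg over all genes, with a threshold of 0.05. Before that, the steps were run on simulated counts in which no library stood apart and none had a length trend. That run therefore does not cover a library such as high glucose replicate 1. SE is that of the fit. Transcript lengths and exon overlaps came from canonical transcripts of GENCODE release 44 on GRCh37, matched by 20839 gene identifiers, and promoters from RefSeq. Figures used matplotlib 3.10.9.

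The 10 genes and all lists were chosen with earlier results of these data known. Named were the 10 genes, every other selenoprotein of at least 1 CPM, in each further list at most the 3 genes with the smallest adjusted p among those of at least 5 CPM, genes overlapping the 10, cell markers, and the 3 genes most like SELENOP. Of the genes this rule selects, some are not reported here. Further names belong to counts of 5 or fewer or are marked in the text. Alternatives were a pseudocount of 0.1 CPM, a minimum mean of 5 CPM, median-of-ratios scaling, equal totals, the replicate number as a block, removal of a length trend and leaving out each library.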

Additional observations from a re-analysis of the deposited data

Results flagged for a closer look

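Within each group of 4 libraries the distance of the highest or lowest value to the next was set against the full spread of the group, with the 95% limit of Dixon as the bound. Of 96 such groups 4 went beyond it, where chance gives about 4.8 (about 1 in 20). SELENOF in low glucose replicate 4 was at 112 CPM against 119 to 120.4 in the other 3 (ratio 0.858). PRDX6 in high glucose replicate 1 was at 192 CPM against 157 to 161 (ratio 0.889). SLC3A2 in low glucose replicate 2 was at 261 CPM against 258.3 to 258.7 (ratio 0.859). UPF1 in high glucose replicate 4 was at 149 CPM against 156 to 158 (ratio 0.858). No group of the 10 chosen selenoproteins went beyond it.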

How the results depend on the processing

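Of 670 values of single named genes under 14 alternatives, 659 were counted as unchanged. For the 10 chosen selenoproteins this meant a move within the replicate spread, and their side of the threshold was not compared. For the other genes it meant the same direction and side of the threshold. Of the rest, 5 lost the threshold (all DIO2, with 1 library left out) and 1 gained it. A further 3 values of the chosen selenoproteins moved by more than the replicate spread, and 2 of other genes reversed. Of the 3, SELENOW (-0.07) also changed sign, to 0.05 with the length trend removed. The reversed ones were DIO3 (0.09) at -0.030 without low glucose replicate 4, in a leave-one-out range of -0.03 to 0.18, and SELENOO (-0.06) at 0.048 without high glucose replicate 4, in a range of -0.17 to 0.05. Of the 2 selenium uptake genes past the threshold, 1 remained with the minimum mean of 5 CPM, with the replicate block and with the length trend removed, and leaving out 1 library gave 1 to 3. The thioredoxin and peroxiredoxin genes past the threshold, 9 of 13, numbered 5 to 11 with 1 library left out. The causes were not tested, except that the minimum of 5 CPM removes SELENBP1 from the test. Same-numbered libraries of the groups did not deviate together (correlations 0.07, -0.03, 0.01 and -0.04). No pairing by number was seen, which does not settle whether same-numbered samples were handled together. The replicate block gave 8921 genes past the threshold in place of 9849. Of the 10 chosen selenoproteins, 4 to 6 had no overlap between groups over the alternatives, with 6 without high glucose replicate 1. Transcripts near the floor, such as HNF4A, were limited by depth.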
